A study of Mus musculus with 18 samples.

Results

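The gap junction connexin genes Gja5, Gja4, Gja1, Gjc1 and Gjb2 were followed across 6 groups of cultured mouse cells. These 5 genes were taken by symbol from a table of 35727 gene IDs, all 5 were in it, and 4 of the 5 had enough counts to be tested. Gjb2 did not, and is described by its counts alone. RNA was sequenced from 18 libraries, 3 in each group, all at day 7: lung iECs, heart iECs, native lung ECs, native heart ECs, control lung fibroblasts and control heart fibroblasts. EC stands for endothelial cell, and iEC is the labels' cell type for libraries whose titles read SEG, a term left unexplained there. Every group was grown in EGM2, an endothelial growth medium, and the stated aim was to look at whether organ-specific endothelial identity is acquired. No strain, age, sex, transgene or sort is given, and nothing says whether the 3 libraries of a group came from separate animals or cultures, so the p-values rest on a spread between libraries that may be technical.

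Connexins are membrane proteins that assemble into hexameric channels. Channels of neighbouring cells dock into gap junctions, through which ions and small molecules pass directly from cell to cell. In blood vessels Gja5 (the gene of Cx40) and Gja4 (Cx37) are known from arterial endothelium, where they carry signals along the vessel wall. Gja1 (Cx43) is found widely, in cardiac muscle, fibroblasts, smooth muscle and endothelium at sites of disturbed flow. Gjc1 (Cx45) is known from early vessels, smooth muscle and cardiac conduction tissue, and Gjb2 (Cx26) from epithelia and the inner ear.

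All 5 genes carry their coding sequence in a single exon, in the annotation used (GENCODE M21 on GRCm38). Gja5 (ENSMUSG00000057123) lies on chromosome 3 from 96904693 to 97077416 on the plus strand. Gja4 (ENSMUSG00000050234) lies on chromosome 4 from 127311421 to 127314039 on the minus strand. Gja1 (ENSMUSG00000050953) lies on chromosome 10 from 56377330 to 56402513 on the plus strand. Gjc1 (ENSMUSG00000034520) lies on chromosome 11 from 102799579 to 102819700, and Gjb2 (ENSMUSG00000046352) on chromosome 14 from 57098600 to 57104702, both on the minus strand. The annotated span of Gja5 overlaps Gpr89 on the opposite strand. Whether the counting used strand is not given in the sources used here, so reads from the overlap could not be assigned with certainty. Gpr89 averaged 23.1 to 28.0 CPM in every group, where CPM is the count per 1e6 counts after TMM scaling of the library totals.

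The 250 bases upstream of the 3 tested members whose levels differed most between groups are shown, 5′ to 3′ on the strand of the gene, from RefSeq on GRCm38.p6. They are chr3:97032152-97032401 on the plus strand for Gja5, chr4:127314040-127314289 on the minus strand for Gja4 and chr10:56377050-56377299 on the plus strand for Gja1. The Gja5 window lies inside the GENCODE span of the gene given above, so the RefSeq start used differs from the start of that span. Sequence upstream of the GENCODE start of Gja5 was not examined. Capitals mark GGAA, the core of ETS factor motifs (Erg is an ETS factor), and ACAAT, a core of SOX factor motifs (Sox17 is a SOX factor), each searched on both strands.
Gja5: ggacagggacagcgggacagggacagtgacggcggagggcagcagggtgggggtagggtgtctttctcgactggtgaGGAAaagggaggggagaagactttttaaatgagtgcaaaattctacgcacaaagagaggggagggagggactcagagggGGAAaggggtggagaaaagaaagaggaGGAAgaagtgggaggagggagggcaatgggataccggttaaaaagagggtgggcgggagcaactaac
Gja4: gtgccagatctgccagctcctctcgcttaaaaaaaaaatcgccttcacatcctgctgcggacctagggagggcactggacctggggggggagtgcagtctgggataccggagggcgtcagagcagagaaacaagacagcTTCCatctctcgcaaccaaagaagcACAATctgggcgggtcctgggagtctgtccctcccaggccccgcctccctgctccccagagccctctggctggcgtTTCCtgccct
Gja1: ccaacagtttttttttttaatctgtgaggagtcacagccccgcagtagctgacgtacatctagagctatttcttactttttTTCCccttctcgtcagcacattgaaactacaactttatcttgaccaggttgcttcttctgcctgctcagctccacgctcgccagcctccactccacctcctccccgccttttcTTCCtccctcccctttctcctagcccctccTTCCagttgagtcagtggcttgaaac
The Gja5 window held 3 GGAA and 0 ACAAT matches, the Gja4 window 2 and 1, and the Gja1 window 3 and 0. Of 32851 windows of this length, 93.4% held a GGAA and the median was 3, while 27.7% held an ACAAT. The GGAA counts lay at or under the median over all windows. A match of letters is not a binding site, and the lack of one says nothing of the factor. Of the 5 members, 4 had a window in the RefSeq table, and Gjc1 had none.

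The libraries held 17747632 to 23775372 estimated counts each, and 1 count in the shallowest equalled 0.0563 CPM before TMM scaling. Over the 14864 genes tested, the comparisons below were fitted together with edgeR's quasi-likelihood test over all 18 libraries, and calls were made where the p adjusted by Benjamini-Hochberg over all of them was under 0.05. Sox17 and Erg, endothelial transcription factors, were at 429.7 to 562 and at 955 to 1186 CPM in lung iECs and at 433 to 487 and 972 to 1063 CPM in heart iECs. They were at 12.6 to 16.7 and 80.2 to 88.3 CPM in lung ECs and at 6.27 to 7.30 and 45.0 to 56.5 CPM in heart ECs. In fibroblasts Sox17 was at most 1.72 CPM and Erg at most 8.95 CPM. The labelled groups also carried transcripts that mark other cell types, and bulk RNA does not show which cells made them. The summed level of 10 endothelial markers (Pecam1, Cdh5, Kdr and others) was 1039.8 to 1141 CPM in lung iECs, 1235 to 1299 in heart iECs, 2787 to 2850 in lung ECs, 1767 to 1938 in heart ECs, 24.9 to 28.5 in lung fibroblasts and 255 to 285 in heart fibroblasts. Cldn5 was under 1 CPM in both iEC groups. The 8 fibroblast markers summed to 10989 to 14758 CPM in lung iECs, 17461 to 18998 in heart iECs, 5490 to 6709 in lung ECs and 19850 to 20816 in heart ECs, against 34761 to 42515 in lung and 28635 to 29994 CPM in heart fibroblasts. Macrophage markers summed to 2434 to 3830 CPM in lung iECs and 7633 to 9711 in lung ECs, against 1028 to 1374 in lung fibroblasts and at most 349 in any heart library. In bulk RNA, fewer cells of a type and less RNA per cell cannot be told apart, and the part of these other transcripts in the connexin results was not tested.

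Gja5 was the member that differed most between groups, and it was high in iECs. Its CPM was 108, 112 and 88.8 in the 3 lung iEC libraries and 379.8, 359 and 384 in the heart iEC libraries. It was 4.47, 5.26 and 6.50 in lung ECs and 5.06, 5.43 and 6.33 in heart ECs. It was 0.115, 0.766 and 0.451 in lung fibroblasts and 0.157, 0.263 and 0.786 in heart fibroblasts, on 28 and 21 counts in all. Each iEC library was above every EC library, and each EC library above every fibroblast library, while the EC groups overlapped each other and so did the fibroblast groups. The highest group mean was 931 times the lowest.

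Gja5 averaged 374 ± 13 CPM in heart iECs and 0.402 ± 0.337 CPM in heart fibroblasts (SD, n = 3 each), a log2 change of 9.90 ± 0.30 (SE; adjusted p 2.35e-13, edgeR). In lung it averaged 103 ± 12.5 CPM in iECs and 0.444 ± 0.326 CPM in fibroblasts, a log2 change of 7.79 ± 0.29 (adjusted p 3.14e-12, edgeR). The low fibroblast counts limit the precision of both changes. ECs exceeded fibroblasts by 3.54 ± 0.33 on the log2 scale in lung and by 3.84 ± 0.36 in heart. iECs exceeded ECs of the same organ by 4.24 ± 0.21 in lung (19.0-fold) and by 6.06 ± 0.22 in heart (66.9-fold). Lung iECs were below heart iECs, with a lung minus heart log2 difference of -1.86 ± 0.18 (adjusted p 4.92e-07, edgeR). No such difference was called between ECs of lung and heart, -0.04 ± 0.22. The iEC response itself was smaller in lung than in heart by 2.12 ± 0.60 (adjusted p 0.0161, edgeR), which was not called without the second lung fibroblast library (-1.52, adjusted p 0.142, edgeR).

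**Figure D1:**
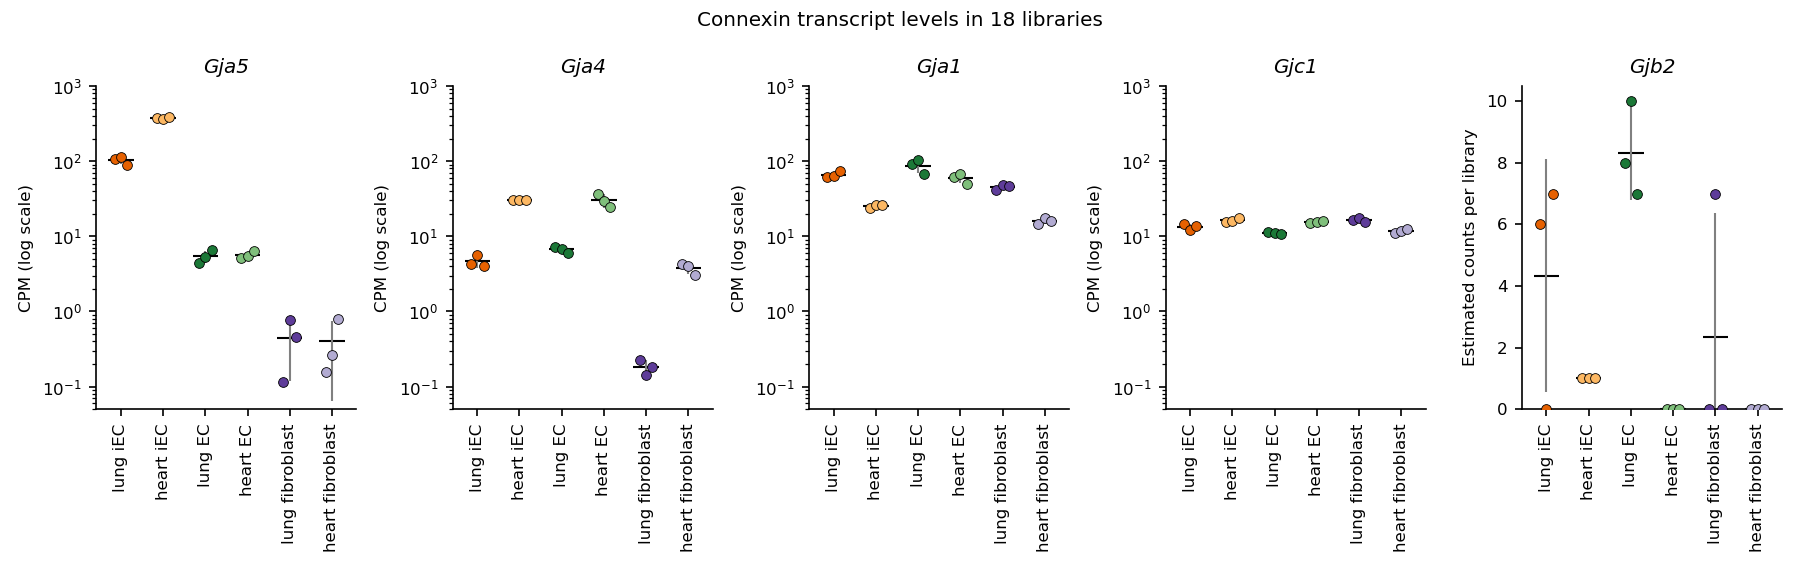
Levels of the 5 connexin genes in each of 18 libraries, by group (n = 3 per group). Points are libraries, black lines means and grey bars SD, clipped at the lower edge; the first 4 panels give CPM on a log scale and Gjb2 estimated counts per library. Gja5 was at 88.8 CPM or more in every iEC library and at most 6.50 CPM in any EC library.

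Gja4 was highest in heart iECs and heart ECs and lowest in lung fibroblasts. Its CPM was 4.27, 5.67 and 4.0 in lung iECs and 30.1, 30.3 and 30.6 in heart iECs. It was 7.25, 6.85 and 6.04 in lung ECs and 36.6, 29.0 and 24.2 in heart ECs. It was 0.229, 0.144 and 0.181 in lung fibroblasts, on 11 counts in all, and 4.28, 4.0 and 3.02 in heart fibroblasts. The heart iEC and heart EC ranges overlapped, as did those of lung iECs and heart fibroblasts, and all other neighbours in the order were apart. Heart fibroblasts also held 255 to 285 CPM of endothelial markers, against 24.9 to 28.5 CPM in lung fibroblasts, and the part of that in their Gja4 was not tested.

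Within an organ, Gja4 was higher in iECs than in fibroblasts by 4.63 ± 0.29 on the log2 scale in lung and by 3.0 ± 0.17 in heart. ECs were higher than fibroblasts by 5.16 ± 0.28 in lung and 2.98 ± 0.17 in heart. The gain over fibroblasts was larger in lung than in heart, by 1.63 ± 0.38 for iECs (adjusted p 0.00395) and 2.17 ± 0.37 for ECs (adjusted p 0.000157, both edgeR), with lung fibroblasts close to 0. Heart iECs and heart ECs did not differ detectably in Gja4, at 0.02 ± 0.15 (adjusted p 0.971, edgeR). Lung iECs were lower than lung ECs by 0.52 ± 0.17 on the log2 scale (adjusted p 0.0152, edgeR), a call lost in a fit of these groups alone and with any 1 of 3 libraries left out. Lung was below heart in all 3 cell types, 6.51-fold lower in iECs, 4.47-fold lower in ECs and 20.2-fold lower in fibroblasts.

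Gja1 was highest in lung ECs and lowest in heart fibroblasts. Its CPM was 61.2, 64.2 and 73.2 in lung iECs, and 23.6, 26.2 and 25.7 in heart iECs. It was 90.6, 103 and 68.3 in lung ECs, and 61.3, 68.3 and 50.3 in heart ECs. It was 41.3, 47.8 and 47.2 in lung fibroblasts, and 14.4, 17.4 and 15.8 in heart fibroblasts. Lung ECs and lung iECs overlapped, and lung iECs and heart ECs did too. The highest mean was 5.50 times the lowest.

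Lung was above heart for Gja1 in each cell type, by 1.39 ± 0.14 in iECs, 0.54 ± 0.13 in ECs and 1.52 ± 0.14 in fibroblasts on the log2 scale. iECs exceeded fibroblasts by 0.54 ± 0.13 in lung and 0.67 ± 0.14 in heart, and ECs exceeded them by 0.94 ± 0.13 in lung and 1.92 ± 0.14 in heart. Heart iECs had less Gja1 than heart ECs, by 1.25 ± 0.13 (adjusted p 4.77e-07, edgeR; 2.38-fold lower). Lung iECs had a log2 change of -0.40 ± 0.13 against lung ECs (adjusted p 0.0185, edgeR), with overlapping ranges and no call in a fit of these groups alone (adjusted p 0.0763). Smooth muscle markers, which mark another cell type that expresses Gja1, summed to 3218 to 3936 CPM in lung iECs, 1404 to 1591 in heart iECs, 1363 to 2126 in lung ECs and 463 to 603 in heart ECs, against 907 to 1247 in lung and 305 to 346 CPM in heart fibroblasts. In heart these sums were higher in iECs than in ECs, while Gja1 was lower in iECs. Against fibroblasts, both the sums and Gja1 were higher in iECs and ECs of both organs. Mesothelial markers (Msln, Wt1 and 3 others) summed to 3.46 to 4.62 CPM in heart iECs and 289 to 418 in heart ECs. Their sums in heart fibroblasts were 41.3 to 56.9 CPM. Heart iECs were thus below heart ECs in both these sums and Gja1. Set against heart fibroblasts, heart iECs had smaller mesothelial sums but more Gja1. In lung mesothelial markers summed to 14.7 to 19.8 CPM in iECs and 179.7 to 275 in ECs, against 208 to 217 CPM in fibroblasts. Lymphatic markers (Prox1, Lyve1 and 3 others) summed to 214 to 292 CPM in lung iECs, 234 to 244 in heart iECs, 1156 to 1260.3 in lung ECs and 723 to 826 in heart ECs, against 328 to 366 in lung and 282 to 320.5 CPM in heart fibroblasts. Pdpn was the largest part of the fibroblast sums, at 317 CPM in lung and 219 CPM in heart. Against fibroblasts, Prox1, Lyve1, Flt4 and Reln rose and Pdpn fell in lung iECs. In heart iECs Flt4 rose, Pdpn and Reln fell, and Prox1 and Lyve1 were not called. Cardiomyocyte markers, of another cell type with Gja1, summed to 8.59 to 9.76 CPM in heart iECs and 62.1 to 76.2 in heart ECs. They summed to 84.4 to 95.5 CPM in heart fibroblasts, and to at most 3.71 CPM in any lung library. Both cardiomyocyte sums and Gja1 were lower in heart iECs than in heart ECs. Against heart fibroblasts, the sums were lower in heart iECs while Gja1 was higher. The part of these marker lists in Gja1 was not tested.

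Gjc1 varied least. Its means were 13.4 ± 1.2 CPM in lung iECs, 16.2 ± 0.89 in heart iECs, 11 ± 0.30 in lung ECs, 15.6 ± 0.31 in heart ECs, 16.4 ± 0.82 in lung fibroblasts and 11.8 ± 0.78 in heart fibroblasts (SD, n = 3 each), a span of 1.49-fold. In the order of these means, heart ECs and lung iECs were apart, and the other neighbours overlapped. The direction against fibroblasts differed between organs. In lung, iECs were lower by 0.30 ± 0.09 (adjusted p 0.0126, edgeR) and ECs by 0.58 ± 0.09 on the log2 scale. In heart, iECs were higher by 0.46 ± 0.09 and ECs by 0.40 ± 0.09. The lung minus heart difference was -0.76 ± 0.13 for iECs and -0.98 ± 0.13 for ECs, both called. The small difference of lung iECs from lung fibroblasts was not called without lung iEC replicate 2 (adjusted p 0.0777, edgeR), nor in a fit of these groups alone (adjusted p 0.0723) or with no filter on low counts (adjusted p 0.0645). Lung iECs were below heart iECs by 0.28 ± 0.09 (adjusted p 0.0220, edgeR), and this too was not called in a fit of these groups alone (adjusted p 0.0687), without lung iEC replicate 2 (adjusted p 0.117) or without heart iEC replicate 3 (adjusted p 0.0977).

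Gjb2 was near the limit of detection. It had 6, 0 and 7 estimated counts in lung iECs, 1, 1 and 1 in heart iECs, 8, 10 and 7 in lung ECs, 0, 7 and 0 in lung fibroblasts, and 0 in every heart EC and heart fibroblast library. Lung ECs, at 25 counts, were at least 7.08-fold higher than heart ECs, taken at the floor of 3 counts over the group. With no filter on low counts, lung ECs against heart ECs was called (adjusted p 0.0172, edgeR), and no other comparison of it was. Lung ECs also held 165 to 187 CPM of epithelial markers, against 10.2 to 18 CPM in heart ECs, and epithelium is a tissue that expresses Gjb2, but its part was not tested. Of the 7 markers, Cldn4 (60.0 CPM), Krt7 (49.4 CPM) and Cdh1 (45.3 CPM) were the largest in lung ECs. Sftpc and Nkx2-1 were under 1 CPM in lung ECs. Floors and intervals cover counting error only.

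Against fibroblasts, all 4 tested members rose in heart iECs, where 26.0% of all genes tested rose and 24.6% fell (50.7% called in all). All 4 rose in heart ECs too, where 24.2% rose and 23.3% fell (47.4%). In lung iECs 3 rose and Gjc1 fell, while 25.9% of genes rose and 24.7% fell (50.6%), and the count was the same in lung ECs, where 29.3% rose and 28.7% fell (58.1%). In heart iECs against heart ECs, Gja5 rose and Gja1 fell, while 24.5% of genes rose and 24.4% fell (48.9%). In lung iECs against lung ECs, Gja5 and Gjc1 rose and Gja1 and Gja4 fell, while 22.2% of genes rose and 23.0% fell (45.2%). Of these 4 calls, that of Gja5 alone was kept in a fit of the 2 groups without the other libraries.

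Between organs, lung against heart, Gja1 rose and Gja5, Gja4 and Gjc1 fell in iECs, where 18.9% of genes rose and 18.9% fell (37.7%). In ECs Gja1 rose and Gja4 and Gjc1 fell, where 24.2% rose and 23.7% fell (47.9%). In fibroblasts Gja1 and Gjc1 rose and Gja4 fell, where 24.6% rose and 23.9% fell (48.5%). The iEC response was larger in lung for Gja4 and smaller for Gja5, and for Gjc1 it was a fall in lung and a rise in heart. Of all genes tested, 12.6% were called in each direction (25.2%). The EC response was larger in lung for Gja4 and smaller for Gja1, and for Gjc1 it was again a fall in lung and a rise in heart. The lung minus heart difference was called positive for 16.2% of genes and negative for 18.3% (34.5%). Comparisons of one organ share their fibroblast or EC libraries.

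**Figure D2:**
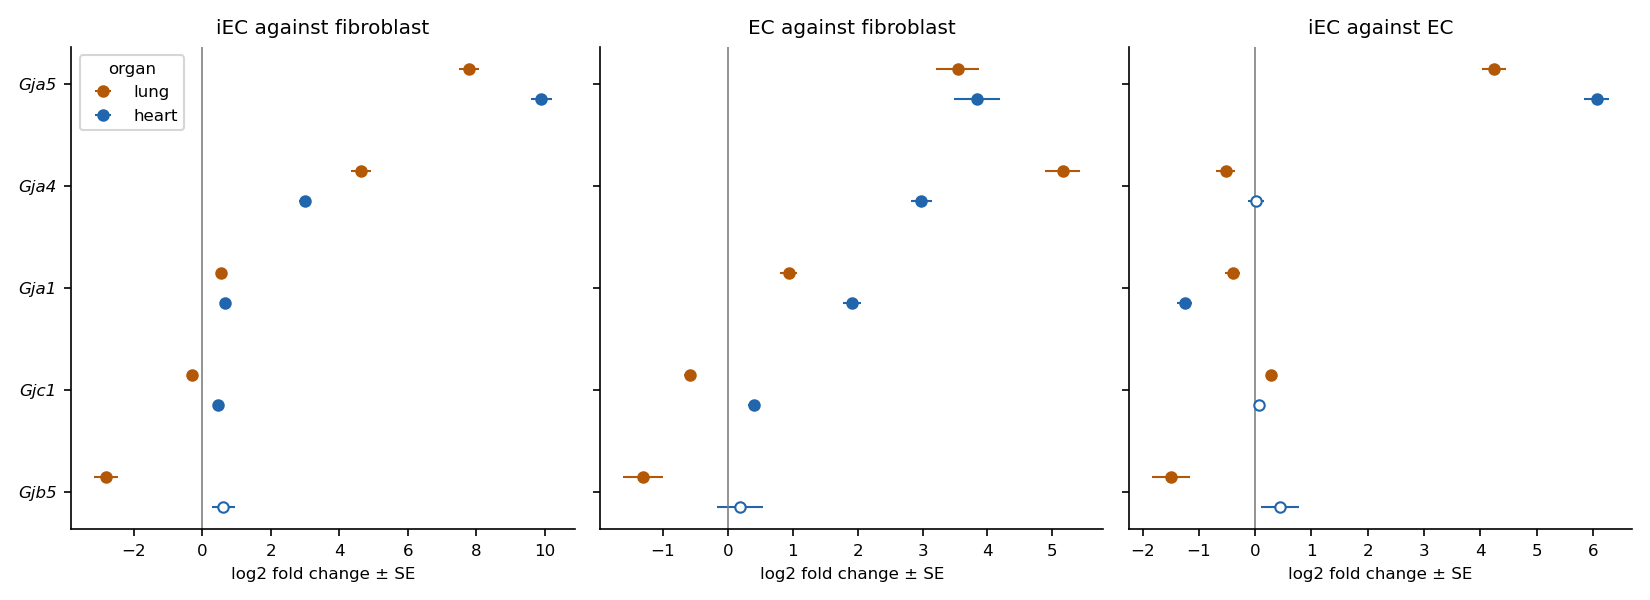
Log2 changes with SE (edgeR) of the 4 tested members and Gjb5, by organ: iECs and ECs set against fibroblasts, and iECs set against ECs (n = 3 libraries per group). Filled points were called at an adjusted p under 0.05, open points were not. Of the genes drawn, Gja5 had the largest changes of iECs, up to 9.90 in heart iECs against heart fibroblasts, and Gja4 that of lung ECs against lung fibroblasts, 5.16.

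The rest of the family helps to place the members. Of 20 connexin genes in the annotation, 9 passed the filter, and 12 stayed below 1 CPM in every group mean, at most 0.619 CPM. Gjb5 fell by 2.81 ± 0.34 in lung iECs, to 1.02 CPM, against 7.23 CPM in lung fibroblasts. It averaged 2.09 ± 0.28 CPM in heart iECs and 1.36 ± 0.32 CPM in heart fibroblasts (SD, n = 3 each), a difference that was not called, and the responses of the organs differed by -3.43 ± 0.48 (adjusted p 3.48e-05, edgeR). Panx1, a pannexin rather than a connexin and a channel for ATP release, fell by 0.97 ± 0.11 in heart iECs, while its change of -0.09 ± 0.12 in lung iECs was not called.

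Beside Gja5, Acp6 at 81361 bases was at 25.9 CPM in lung iECs and 45.9 CPM in heart iECs, against 12.9 CPM in lung fibroblasts and 7.45 CPM in heart fibroblasts. Acp6 rose by 1.01 ± 0.12 in lung iECs and 2.63 ± 0.12 in heart iECs, against 7.79 and 9.90 for Gja5. Bcl9, the next gene on that side at 126246 bases, was at 35.1 CPM in lung iECs and 39.8 CPM in lung fibroblasts, a change that was not called. It fell by 0.43 ± 0.11 in heart iECs, to 22.6 CPM, against 30.5 CPM in heart fibroblasts.

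Set per transcript length (TPM-like values over merged exons), the connexin mix differed between groups. The sum over all connexins was 128 ± 13 in lung iECs, 339 ± 13 in heart iECs, 89.8 ± 1.9 in lung ECs, 104 ± 14 in heart ECs, 59.9 ± 2.4 in lung fibroblasts and 30.2 ± 1.9 in heart fibroblasts (SD, n = 3 each). Gja5 made up 53.2% ± 2.9 of it in lung iECs and 69.9% ± 0.53 in heart iECs. Gja4 led in heart ECs, at 56.3% ± 3.7, and Gja1 in lung ECs, at 33.6% ± 5.8. Gja1 made up 24.2% in lung fibroblasts, and in heart fibroblasts Gjc1 (23.7%) and Gja4 (22.6%) were close. By the longest transcript Gja4 averaged 41.0% in heart ECs and Gja1 35.8%, and Gja1 was ahead in 1 of the 3 libraries. Gja1 is 10257 bases by merged exons and 3889 by the longest transcript, against 1685 for Gja4 by both. Its annotated principal transcript is shorter still, at 3071 bases, and shares by that length were not computed. The lead of Gja4 in heart ECs thus depends on the length chosen. In heart fibroblasts the lead also depended on the length: by the longest transcript Gja1 led with 29.7%.

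**Figure D3:**
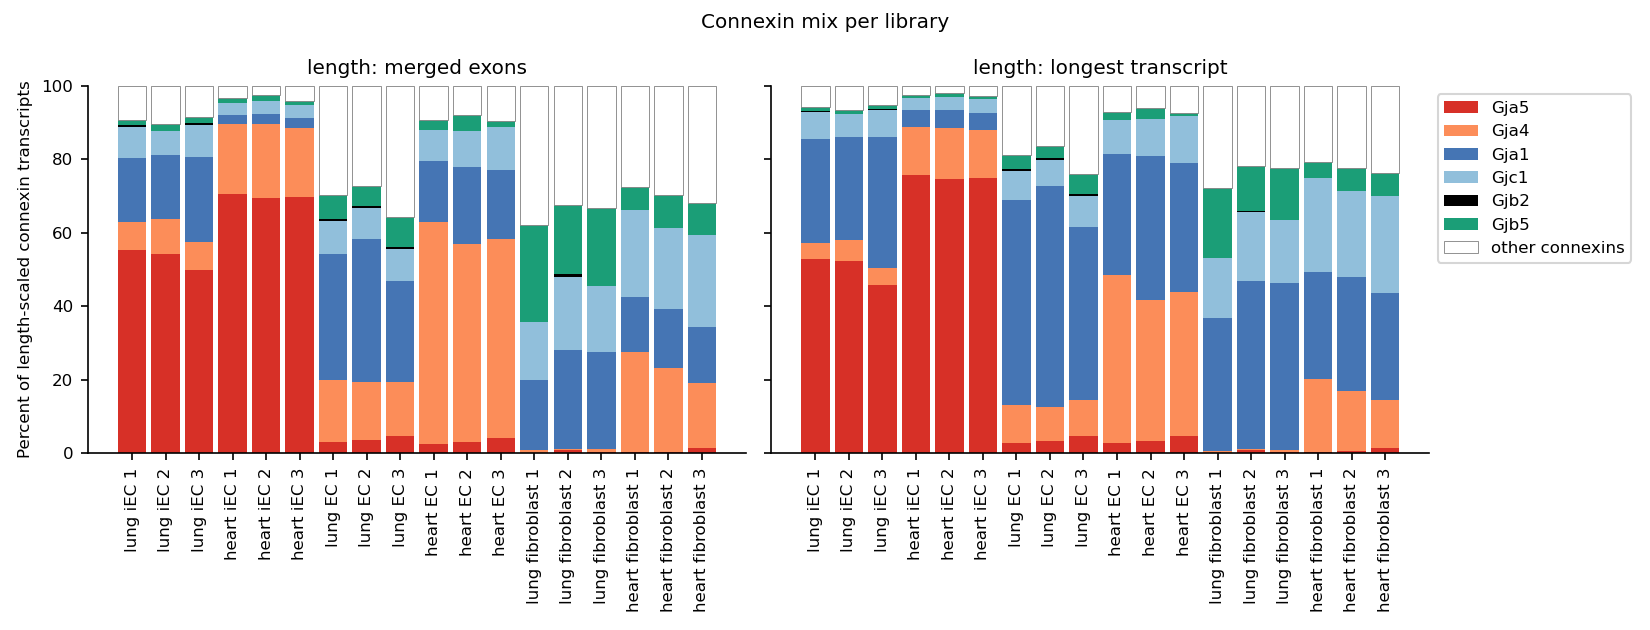
Share of each connexin in the length-scaled connexin transcripts of each library, in percent, with merged exon length (left) and longest transcript length (right). Gja5 is the largest share in all 6 iEC libraries, 69.9% on average in heart iECs.

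Genes with the most similar pattern were found by the root mean square difference of centred log2 CPM over the 18 libraries, among 11515 candidates. For Gja5 they were Clvs1 at 1.19, Sox17 at 1.22 and Slc35f1 at 1.26, against 3.67 for Gja5's own spread. Clvs1 averaged 18.9 CPM in lung iECs and 18.4 in heart iECs, against at most 0.452 CPM in any other group. For Gja4 they were Acer2 (0.505), Clec14a, an endothelial lectin-like gene (0.622), and Cbfa2t3 (0.736). For Gja1 they were Dusp10 (0.246), Arhgap11a (0.269) and Ercc6l (0.283), and for Gjc1 Prrc1 (0.108), Copb2 (0.120) and Pigt (0.121). The 3 nearest changed in order or in membership for Gja5 and Gja1 with a prior count of 0.5 or 5.

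**Figure D4:**
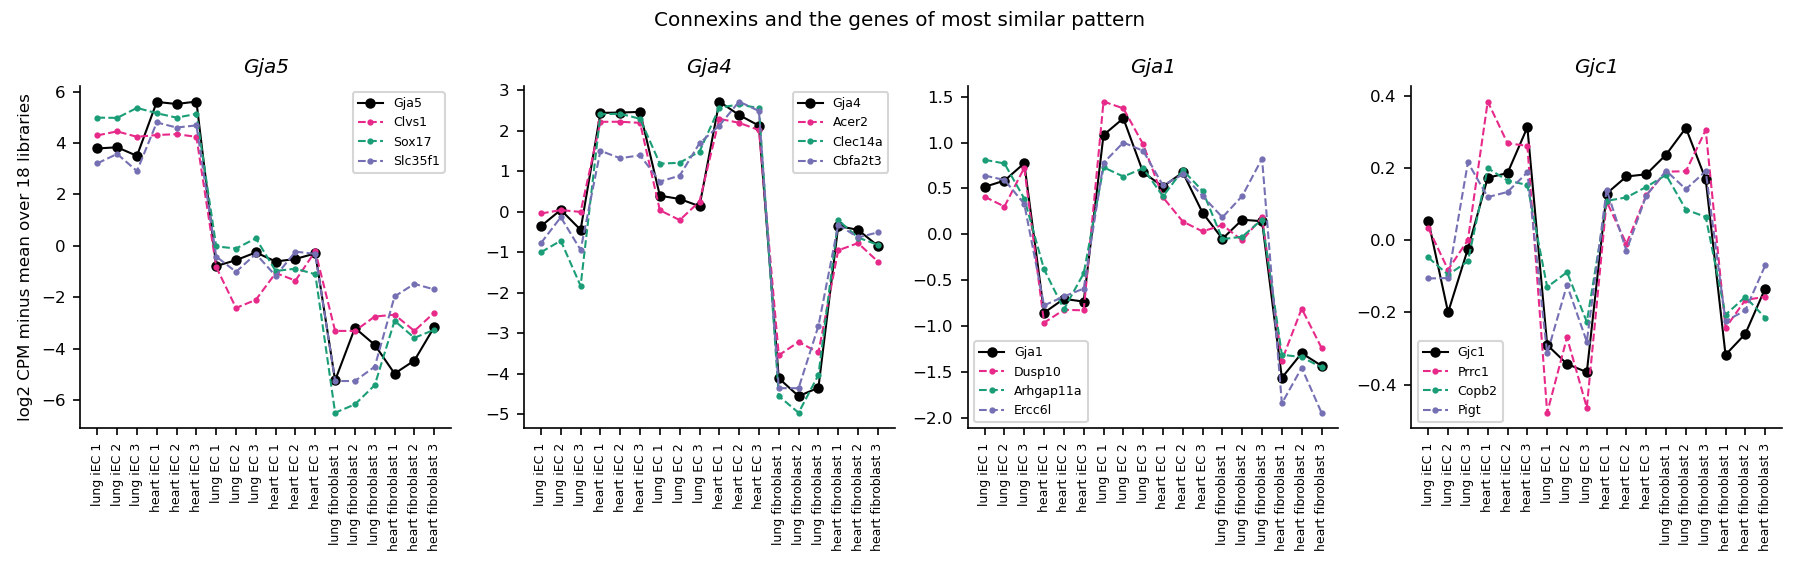
Log2 CPM minus its mean over the 18 libraries, for each tested connexin (black) and its 3 most similar genes (coloured), one point per library. Gja5 and Sox17 are both highest in the 6 iEC libraries, and Gjc1 and its nearest genes move within narrow limits.

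Other genes of the system are given from lists. Of 17 connexin partners and turnover genes, 11 rose and 2 fell in heart iECs against heart fibroblasts (median log2 change 0.47, against 0.02 for all genes tested), and 9 rose and 2 fell in lung (median 0.24, against 0 for all). Of all genes tested, 26.0% rose and 24.6% fell in the heart comparison, and 25.9% rose and 24.7% fell in the lung comparison. Cav1, of caveolae, rose by 2.33 ± 0.16 in lung iECs and by 3.21 ± 0.17 in heart iECs. Prkca, a kinase that phosphorylates connexins, fell by 1.18 ± 0.16 in lung and 0.77 ± 0.15 in heart iECs. Ccn3, a binding partner of Cx43, was at 54.6 CPM in lung iECs and 3.22 CPM in lung ECs, a log2 change of 4.08 ± 0.20.

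Of 16 tested regulators of connexin genes, 8 rose and 2 fell in heart iECs (median 0.40) and 4 rose and 5 fell in lung iECs (median -0.02) against fibroblasts. The regulators called in either direction were thus 10 of 16 in heart iECs, where 50.7% of all genes were called, and 9 of 16 in lung iECs, where 50.6% were, shares near the background. Sox18, an endothelial SOX factor, was at 0.199 CPM in lung iECs, against 37.5 CPM in lung ECs, and at 0.734 CPM in heart iECs, against 18.5 CPM in heart ECs. Klf4, a factor induced by laminar flow, fell by 1.56 ± 0.16 in lung iECs and by 0.71 ± 0.15 in heart iECs against fibroblasts. In lung against heart iECs 3 regulators rose and 8 fell, with a median log2 difference of -0.73, where 18.9% of all genes rose and 18.9% fell. Gata4, a heart factor, was at 7.95 CPM in lung iECs and 156 CPM in heart iECs. Tbx3, a T-box repressor of Gja5 and Gja1 in cardiac conduction tissue, ran the other way, at 29.7 CPM in lung iECs and 2.09 CPM in heart iECs. Tbx5, an activator of Gja5 in the heart, was at 12.4 CPM in lung iECs and 2.58 CPM in heart iECs, while Hey2, a Notch target of arterial cells, was at 2.55 and 10.1 CPM in the same groups.

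Of 16 arterial genes other than connexins, 14 rose and 2 fell in heart iECs against heart fibroblasts (median 2.75), and 16 rose in lung iECs against lung fibroblasts (median 2.23). Of all genes tested, 26.0% rose and 24.6% fell in the heart comparison, and 25.9% rose and 24.7% fell in that of lung. Sox17 and Hey2 are in this list and among the regulators. In lung against heart iECs, 12 of the 16 fell and 0 rose, with a median log2 difference of -1.99, against -0.02 for all genes tested, of which 18.9% fell and 18.9% rose. Sema3g, an arterial semaphorin gene, rose by 5.29 ± 0.29 in lung iECs and by 5.49 ± 0.20 in heart iECs against fibroblasts, and Hey1 by 4.75 ± 0.33 and 6.62 ± 0.32 in the same comparisons. In lung against heart iECs the falls included Bmx, at 2.74 CPM in lung iECs and 114 CPM in heart iECs, and Unc5b and Dll4, receptor and ligand genes of arterial endothelium. In lung against heart fibroblasts 12 of the 16 fell and 1 rose as well, with a median of -2.08, where 23.9% of all genes fell and 24.6% rose. In lung against heart ECs the list was mixed, with 7 higher and 3 lower and a median of 0.17, where 24.2% of all genes rose and 23.7% fell.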

How the data were processed

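The deposited table holds estimated counts per gene, in whole numbers; per the submitters' processing notes the authors worked on the mm10 build with Salmon and DESeq2, whose versions are not given in the sources used here. How transcripts were summed to genes is not given in the sources used here. Columns were assigned by name, and 0 columns were left unused. The fits used edgeR 4.0.16 (R 4.3.3): filterByExpr on the 6 groups (14864 genes kept), TMM scaling, robust quasi-likelihood fit of 1 coefficient per group over all 18 libraries, Benjamini-Hochberg adjustment within a comparison. The SE is the absolute log2 change over the square root of F. CPM are counts over TMM-scaled library sizes, TPM-like levels use GENCODE M21 lengths. Promoters are from RefSeq. On simulated data of 14495 genes made for heart iEC against heart fibroblast, 62 of 67 genes changed 2-fold were recovered, and 47 of 67 changed 1.5-fold. The changed genes averaged at least 5 CPM over all libraries. Levels as low as those of Gja5 in fibroblasts and Gja4 in lung fibroblasts were thus not covered. The simulation also changed far fewer genes than the 7530 called in that comparison of the data. Its recovery may therefore differ from that of the real fit. Alternatives: DESeq2 1.42.0, RLE scaling, no filter, 5 CPM in 3 libraries, compared groups alone, replicate block, each library left out, prior counts, transcript lengths. The members and lists were chosen with earlier results of these data known. Named genes are the 5 members, other connexins or Panx1 with at least 1 CPM in a group, Sox17, Erg, the 3 genes most like each tested member, and up to 4 genes plus 1 opposite one per list. Some genes this rule names are not reported here.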

Additional observations from a re-analysis of the deposited data

Results flagged for a closer look

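The difference of a response between organs (lung minus heart, on the log2 scale, edgeR) was called for several genes. For the iEC response these were Gja5 at -2.12, Gja4 at 1.63, Gjc1 at -0.76, Gjb5 at -3.43 and Panx1 at 0.87. For the EC response they were Gja4 at 2.17, Gja1 at -0.98, Gjc1 at -0.98 and Gjb5 at -1.50. Gjb5 rests on group means of 1.02 to 7.23 CPM. The Gja5 value was -1.52 and not called without the second lung fibroblast library (adjusted p 0.142, edgeR). The Gjb5 value of the EC response was not called with any 1 of 3 libraries left out, the second heart EC (-1.11, adjusted p 0.0822), first heart fibroblast (-1.31, adjusted p 0.0558) and first lung fibroblast library (-1.24, adjusted p 0.0528, all edgeR).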

How the results depend on the processing

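Counts of all genes called stayed within 1.5 times under every alternative run. Connexin members called in lung iECs against lung ECs fell to 1 in a fit of the compared groups alone, against 4, and ranged over 1 to 3 with a library left out. By longest transcript, shares per length were 75.2% for Gja5 in heart iECs, 54.4% for Gja1 in lung ECs, 41.0% for Gja4 in heart ECs, 42.5% for Gja1 in lung fibroblasts and 25.2% for Gjc1 in heart fibroblasts.

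Signs turned only for log2 changes near 0 that were not called. With a library left out, Gja4 ranged from -0.12 to 0.19 in heart iECs against heart ECs. Gja5 ranged from -0.19 to 0.073 in lung against heart ECs, from -0.35 to 1.11 in lung against heart fibroblasts, and from -1.16 to 0.30 for the organ difference of the EC response. In heart ECs against heart fibroblasts Gjb5 ranged from -0.20 to 0.54 and Panx1 from -0.050 to 0.030. Panx1 there was 0.0069 by DESeq2, 0.0065 with RLE scaling and 0.00058 in the compared groups alone. Panx1 ranged from -0.18 to 0.024 in lung iECs and from -0.046 to 0.17 in lung ECs against lung fibroblasts, and from -0.041 to 0.18 for the organ difference of the EC response. The cause was not tested.

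No strong pairing by replicate number was seen. Over 45 same-number pairs the correlation of deviations ran from -0.40 to 0.12, with 1 over 0.1. With 3 libraries per group, a weaker pairing could be missed. A replicate block ended no call of a member, with 4 called in lung iECs against lung ECs as without it, and gave 7387 genes called in heart iECs against heart fibroblasts. Low counts limit Gjb2 everywhere, Gja5 in fibroblasts of both organs and Gja4 in lung fibroblasts.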
